A study of Mus musculus with 12 samples.

Results

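The retinas of 8-week-old JR5558 mice were compared with those of C57BL/6J mice of the same age, 3 mice per strain and 1 library per retina, 6 of the 12 libraries in the series. The other 6 libraries, of both strains at 4 weeks, entered the model fit and the comparison of the 2 ages. JR5558 is an inbred line in which new vessels grow into the space under the retina without injury or treatment. By its known genotype it has the Crb1 allele rd8 together with a Jak3 allele, and C57BL/6J, called the controls in what follows, served as wild type. The labels name no treatment in either group. Because the strains can differ at many other loci, an effect of the 2 named alleles and one of the remaining strain background cannot be told apart. The series title names proline metabolism and prolyl 4-hydroxylase in subretinal scarring.

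Most RNA of a whole retina comes from rods, the photoreceptors of dim light, while cones, inner neurons, Müller glia, microglia and vessel cells contribute smaller shares. Müller glia span the retina, hold photoreceptors in place through Crumbs-dependent junctions at the outer limiting membrane, and answer photoreceptor stress with a set of reactive genes. Microglia, the resident phagocytes, move toward degenerating photoreceptors. Subretinal vessel growth takes place between the photoreceptors and the retinal pigment epithelium, a pigmented cell layer that a dissected retina carries along to a variable extent.

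Totals at 8 weeks ran from 18481601 to 22333615 counts per library. Xist, made by the inactive X chromosome, had 7772 to 15577 counts in each of the 6 retinas, with 0 counts of the Y-linked genes Ddx3y, Eif2s3y, Kdm5d and Uty, so the strains did not differ in sex at this age. Control retina 1 correlated with its group at 0.979 and 0.981 (Pearson r of log2 CPM), against 0.988 between the other control libraries and 0.990 among the JR5558 libraries. Levels are given as CPM, counts scaled to 1000000 per library after a correction for library composition. Prph2, which shapes the disc rims of photoreceptor outer segments, stood at 5683, 6017 and 6352 CPM in controls and 5641, 5711 and 5792 CPM in JR5558 retinas, so the tissue label matched this marker. A value after ± is the standard error of a log2 fold change unless called SD, and libraries are named by strain and replicate number (control retina 1, JR5558 retina 3).

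Of 18334 tested genes, 949 (5.18%) differed between the strains at 8 weeks at an adjusted p under 0.05 (edgeR's quasi-likelihood test, Benjamini-Hochberg adjustment). JR5558 was higher in 466 (2.54%) and lower in 483 (2.63%), and 344 (1.88%) changed at least 2-fold, 205 higher (1.12%) and 139 lower (0.758%). These shares are the background for the counts of called list members given below. For 948 of the 949 the values of the 2 strains did not overlap, a separation that 30.2% of all tested genes showed. Among protein-coding genes 361 were higher and 392 lower, and among 917 tested pseudogenes 44 were higher and 11 lower. In the authors' deposited table, 2088 of 27387 genes had an adjusted p under 0.05, and 923 of the 949 genes were among them. Fitted to the 6 libraries of 8 weeks alone, 2183 genes passed. Without 1 library the count lay between 538 and 649, and it was 538 without JR5558 retina 3, 583 without JR5558 retina 2, 602 without control retina 1 and 632 without control retina 2.

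**Figure D1:**
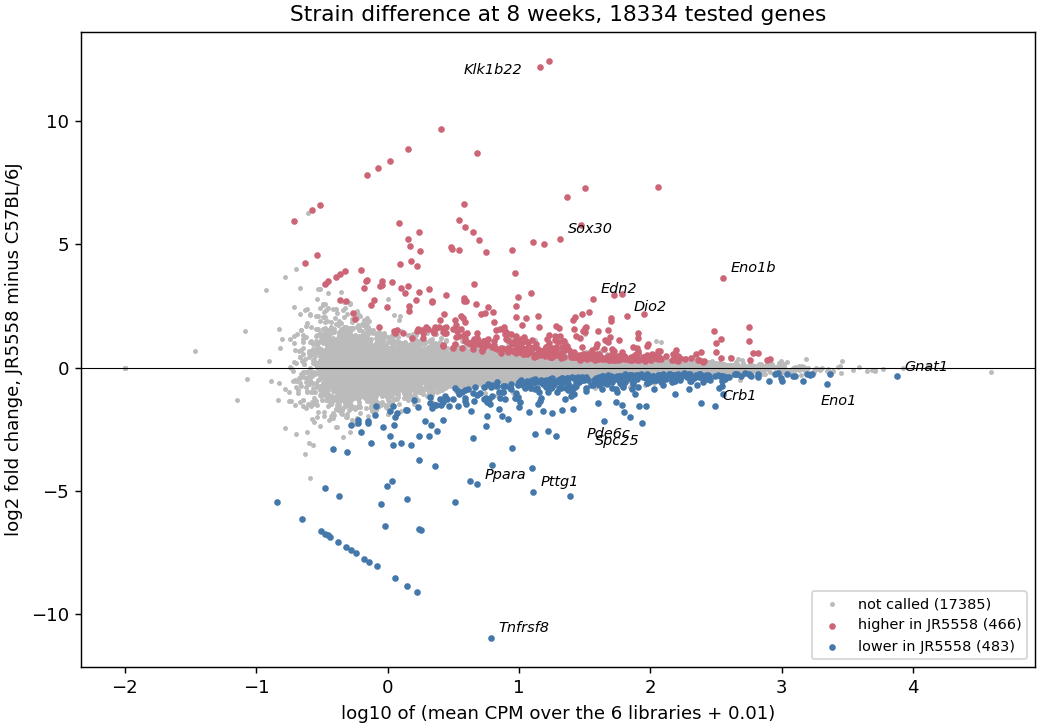
Each point is 1 of 18334 tested genes, with the log10 mean CPM over the 6 libraries of 8 weeks on the x axis and the log2 fold change (JR5558 minus C57BL/6J) on the y axis; red points are the 466 genes called higher, blue points the 483 called lower. Points of genes with 0 counts in one strain depend on the prior count of the fit.

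At 4 weeks, 1130 genes (6.16%) differed between the strains in the same fit. The JR5558 retinas of that age held 0 to 5 counts of Xist and 1323 to 1846 of Ddx3y, against 16416 to 22988 and 0 in controls. Sex therefore differs with strain at 4 weeks, and the 2 cannot be told apart in any 4-week value given here. Of the 949 genes called at 8 weeks, 557 were called at 4 weeks in the same direction, which is 58.7% of the 8-week calls and 49.3% of the 4-week calls. The sign at 4 weeks was the same for 891 of the 949 and the other for 58. A gene called at 1 age only is not thereby shown to differ between ages. That difference itself passed the test for 17 genes, described further down.

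Markers of the pigment epithelium were higher in JR5558. All 33 tested markers had a positive log2 fold change, with a median of 0.83 against 0.00 over all tested genes. Of the 33, 9 rose, 0 fell and 24 did not pass. Their summed level was 835 to 1112 CPM in controls and 1562 to 1864 CPM in JR5558, without overlap. Rpe65, the isomerase of the visual cycle, stood at 22.2, 18.4 and 12.5 CPM in controls and 47.2, 34.6 and 54.6 CPM in JR5558 retinas. Each JR5558 retina held more than each control, yet the gene missed the threshold (log2 fold change 1.36 ± 0.39, adjusted p = 0.0522). Ptgds, which makes prostaglandin D2, stood at 244, 213 and 181 CPM in controls and 425, 468 and 540.1 CPM in JR5558 retinas. It passed with no overlap between strains (log2 fold change 1.17 ± 0.16, adjusted p = 6.73e-05). The 9 calls became 6 without control retina 2 or 3 or JR5558 retina 3, 14 by DESeq2, 25 with no filter on low counts and 23 in the 6 libraries of 8 weeks alone. Mertk, the receptor for engulfing shed outer segments, rose (0.83 ± 0.15, adjusted p = 0.00192), as did the membrane linker Ezr (0.70 ± 0.13, adjusted p = 0.00198). Choroid stroma and fibroblast markers passed in 0 of 11 genes by edgeR or DESeq2 (1 at an unadjusted p under 0.05, which 17.4% of all tested genes had), with summed levels of 48.2 to 49.7 CPM in controls and 40.9 to 52.9 CPM in JR5558. Lens genes passed in 0 of 16 (0 unadjusted), with 41.0 to 97.7 CPM and 52.4 to 126.2 CPM.

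With the mean log2 CPM of these 33 markers as a covariate, 154 genes passed in place of 949, 80 higher and 74 lower. The score itself separated the strains, at 3.02 to 3.42 in C57BL/6J and 3.97 to 4.28 in JR5558, so pigment epithelium content and strain cannot be told apart in that fit. Of the 103 called genes selected for naming, 26 kept their call with the covariate, among them Crb1, Klk1b22, Ces1a, Sox30, Tagap, Tgm3, Gnat3, Tnfrsf8, Trim12a, Pttg1, Zfp982, Ppara, Ube4bos1, Pde6c, Impg2, Spc25, Edn2, Cd59a, Ccn2, Eno1b, Eno1, Usp2, Ip6k2, Dio2 and mt-Tl2. The calls of the other 77 ended, and none of them changed sign. The part of pigment epithelium RNA in those results was not tested beyond this fit.

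**Figure D2:**
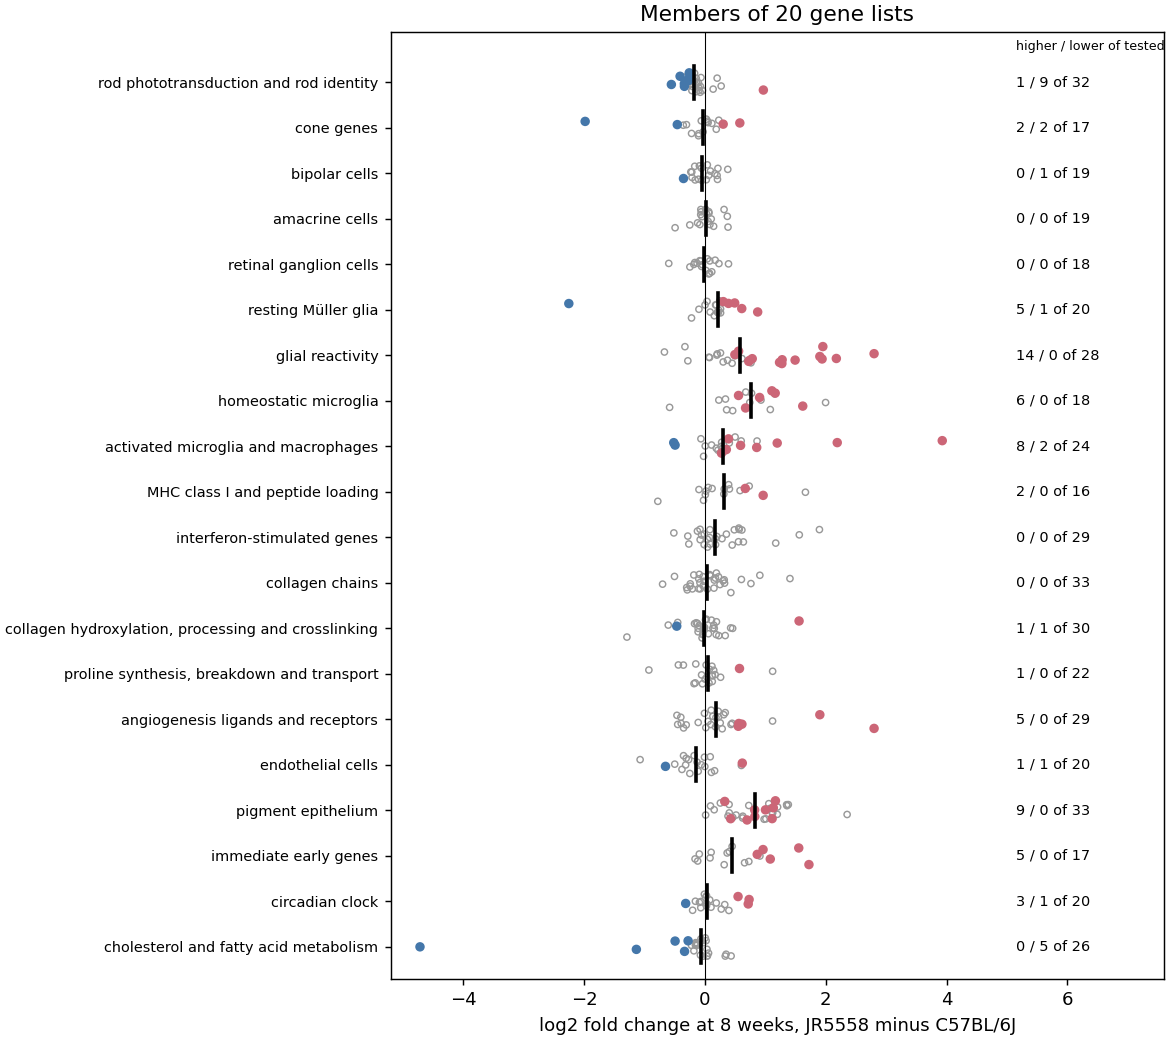
Each circle is a tested member of 1 of 20 gene lists, placed by its log2 fold change at 8 weeks (JR5558 minus C57BL/6J, x axis); filled red circles passed the test as higher, filled blue circles as lower, open circles did not pass, and the black bar is the list's median. The medians of homeostatic microglia (0.76), pigment epithelium (0.83) and glial reactivity (0.59) lie to the right, and that of the rod genes (-0.17) to the left.

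Crb1, the polarity protein whose rd8 allele JR5558 carries (ENSMUSG00000063681, chromosome 1, 139124794 to 139304838 in the deposited table), stood at 433, 473 and 487 CPM in controls and 162, 156 and 158 CPM in JR5558 retinas. The JR5558 libraries lay close together and far below every control (log2 fold change -1.55 ± 0.10, adjusted p = 5.92e-09). Positions in the deposited table do not match GRCm38, so the build of the positions given for Crb1, for Jak3 and for the windows of chromosomes is not settled. Jak3, the kinase of common gamma chain cytokine receptors (ENSMUSG00000031805, chromosome 8, 72128940 to 72143219), stood at 3.60, 3.10 and 3.53 CPM in controls and 9.72, 11.3 and 8.82 CPM in JR5558 retinas. It was higher in every JR5558 retina (log2 fold change 1.54 ± 0.27, adjusted p = 0.00122). Of 29 Crumbs complex and junction genes, 1 rose, 2 fell and 26 did not pass. The adhesion protein N-cadherin, Cdh2, rose (0.30 ± 0.07, adjusted p = 0.016), and besides Crb1 the scaffold Mpdz fell (-0.25 ± 0.07, adjusted p = 0.0397). The calls of Cdh2 and Mpdz ended without any 1 of the 6 libraries (adjusted p up to 0.0794 and 0.209).

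The largest differences were genes read in 1 strain and nearly or wholly unread in the other. The kallikrein Klk1b22 stood at 0, 0 and 0 CPM in controls and 26.9, 30.6 and 28.9 CPM in JR5558 retinas. Set against a floor of 3 counts over the control group, it was at least 559-fold higher in JR5558, the carboxylesterase Ces1a at least 98.6-fold and Itprid1 at least 26.3-fold, each with 0 counts in C57BL/6J. In the other direction Tnfrsf8, the lymphocyte receptor CD30, stood at 12.7, 11.0 and 13.05 CPM in controls and 0, 0 and 0 CPM in JR5558 retinas and was at least 263-fold lower. Trim12a, of the antiviral TRIM family, was at least 48.1-fold lower.

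Other genes of this kind were read in both strains at very different levels. Pttg1, securin of the mitotic chromatid bond, stood at 21.8, 25.4 and 27.2 CPM in controls and 0.291, 0.887 and 1.05 CPM in JR5558 retinas. Its JR5558 values lay far below all controls (log2 fold change -5.04 ± 0.25, adjusted p = 6.54e-11). Ppara, the nuclear receptor that drives fatty acid oxidation, stood at 6.54, 10.3 and 10.8 CPM in controls and 0.437, 0.399 and 0.191 CPM in JR5558 retinas. It too was nearly lost in all 3 JR5558 retinas (log2 fold change -4.72 ± 0.34, adjusted p = 1.54e-08). Log2 fold changes were 5.24 ± 0.21 for the transcription factor Sox30, 5.23 ± 0.71 for Trim43b, 4.77 ± 0.22 for the transglutaminase Tgm3, 4.75 ± 0.41 for the taste transducin Gnat3 and 4.13 ± 0.59 for Zfp990. They were -4.80 ± 0.69 for Zfp982, -3.25 ± 0.19 for Ube4bos1, -3.14 ± 0.49 for Zfp429, -3.04 ± 0.64 for Ucma, -3.04 ± 0.67 for Morc2b and -2.87 ± 0.57 for Xlr3b, and the adjusted p of these 11 genes ran from 3.71e-12 to 0.00943. The Morc2b call ended without JR5558 retina 1 (adjusted p = 0.0622). Klk1b22, Ces1a, Trim12a, Xlr3b and the zinc finger genes belong to families of close copies, so their counts are uncertain.

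Tagap, a GTPase-activating protein of T cells, belongs to a pair of near-identical copies. It stood at 0.140, 0.442 and 0.214 CPM in controls and 10.5, 8.74 and 9.48 CPM in JR5558 retinas (log2 fold change 5.18 ± 0.30, adjusted p = 5.87e-10). Its copy Tagap1 was lower in JR5558, at 32.8 ± 1.31 CPM in controls and 10.0 ± 0.672 CPM in JR5558 (SD, n = 3), and the 2 copies summed to 33.0 ± 1.47 CPM in controls and 19.6 ± 1.26 CPM in JR5558. The split of reads between the copies is uncertain. The sum does not depend on that split, but it can lack reads that match both copies equally, so it is uncertain too.

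Rod genes were lower in JR5558 by small amounts. Of 32 tested rod genes, 28 had a negative log2 fold change, 9 fell, 1 rose and 22 did not pass, with a median of -0.17 against 0.00 over all tested genes. Their summed level was 98635 to 104066 CPM in controls and 88450 to 90946 CPM in JR5558, without overlap. In a bulk library fewer rods and less RNA per rod cannot be told apart. Over the 6 fits that leave out 1 library, 3 to 6 rod genes fell (3 without JR5558 retina 2 or 3). With the pigment epithelium covariate 0 rod genes passed by edgeR (6 at an unadjusted p under 0.05, against 8.15% of all tested genes in that fit), and in the 6 libraries of 8 weeks alone 17 fell and 3 rose.

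Gnat1, the rod transducin alpha subunit that carries the light signal, stood at 8329.7, 8772 and 8242 CPM in controls and 6877, 6417 and 6712 CPM in JR5558 retinas. Controls and JR5558 did not overlap (log2 fold change -0.34 ± 0.06, adjusted p = 0.00216). Guca1b, a calcium sensor that switches on guanylate cyclase, stood at 1660.2, 1667 and 1885 CPM in controls and 1128, 1195 and 1222 CPM in JR5558 retinas, again with every JR5558 retina below every control (log2 fold change -0.56 ± 0.10, adjusted p = 0.00184). Cngb1, the beta subunit of the rod cyclic nucleotide-gated channel, stood at 1114, 1098 and 1161 CPM in controls and 847, 868 and 821 CPM in JR5558 retinas. The 3 JR5558 values were close together and below the controls (log2 fold change -0.41 ± 0.08, adjusted p = 0.00454). Reep6, needed for membrane trafficking in rods, stood at 1359, 1354 and 1369.8 CPM in controls and 1132, 1061 and 1033 CPM in JR5558 retinas and fell (log2 fold change -0.34 ± 0.08, adjusted p = 0.00947), a call that ended without JR5558 retina 2 or 3 (adjusted p up to 0.0666).

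Smaller decreases, of genes named after their values were seen, were those of the phosphodiesterase subunit Pde6b (-0.28 ± 0.07, adjusted p = 0.0141), the photoreceptor transcription factor Crx (-0.28 ± 0.07, adjusted p = 0.0154), the retinol dehydrogenase Rdh12 (-0.26 ± 0.07, adjusted p = 0.025), the photoreceptor kinase Grk1 (-0.25 ± 0.06, adjusted p = 0.0214) and the anchor Rgs9bp (-0.24 ± 0.06, adjusted p = 0.0255). Without any 1 library the calls of Rdh12, Grk1 and Rgs9bp ended (adjusted p up to 0.168), that of Pde6b in each fit but the one without control retina 1 (up to 0.123), and that of Crx without control retina 2 or 3 or JR5558 retina 2 or 3 (up to 0.123). The calcium sensor Guca1a, at 3.13, 3.32 and 2.99 CPM in controls and 6.27, 5.63 and 6.58 CPM in JR5558 retinas, was the 1 member that rose (log2 fold change 0.97 ± 0.25, adjusted p = 0.0254), a call that ended without any 1 library (adjusted p up to 0.116).

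Rod promoters often hold the core site of CRX, TAATCC. The 250 bases before the start of Cngb1 (chr8:95306586-95306835, minus strand) and of Crx itself (chr7:15879956-15880205, minus strand), from RefSeq on GRCm38.p6, are shown because both genes fell and both windows hold 2 matches, in capitals (GGATTA is the same site read on the other strand).
Cngb1: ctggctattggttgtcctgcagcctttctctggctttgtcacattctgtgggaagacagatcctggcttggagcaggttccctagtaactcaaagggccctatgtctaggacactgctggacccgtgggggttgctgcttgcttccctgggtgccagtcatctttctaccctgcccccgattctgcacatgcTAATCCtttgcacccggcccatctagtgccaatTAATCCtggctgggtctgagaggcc
Crx: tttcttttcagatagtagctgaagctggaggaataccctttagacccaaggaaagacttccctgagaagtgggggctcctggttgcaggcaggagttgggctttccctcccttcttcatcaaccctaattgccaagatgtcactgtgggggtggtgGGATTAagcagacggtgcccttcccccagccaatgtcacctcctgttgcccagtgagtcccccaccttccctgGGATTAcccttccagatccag
The matches began 58 and 25 bases before the start in Cngb1, and 94 and 21 bases before it in Crx. Searched on both strands, TAATCC was found in 6.25% of all 32851 promoter windows of 250 bases, in 11 of the 23 tested rod genes with a window (47.8%) and in 3 of the 6 called ones. Besides Cngb1 and Crx, the called gene with a match was Guca1a, which rose. Grk1, Pde6b and Rdh12, which fell, held none. A match of these letters is a description and not a shown binding site.

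Cone genes moved in both directions. Pde6c, the cone phosphodiesterase, stood at 115, 105 and 112 CPM in controls and 30.8, 26.9 and 26.3 CPM in JR5558 retinas. All JR5558 retinas lay far below all controls (log2 fold change -1.98 ± 0.09, adjusted p = 2.63e-11). Gnb3, a transducin beta subunit of cones and ON bipolar cells, stood at 509, 471 and 469.8 CPM in controls and 706, 711 and 746 CPM in JR5558 retinas and rose (log2 fold change 0.58 ± 0.09, adjusted p = 0.000338). The short-wavelength opsin Opn1sw rose (0.30 ± 0.07, adjusted p = 0.0114) and cone arrestin Arr3 fell (-0.46 ± 0.12, adjusted p = 0.0255). The Opn1sw call ended without retina 1 of either strain (adjusted p up to 0.104) and the Arr3 call without control retina 1 or 3 or JR5558 retina 2 or 3 (up to 0.166). Of 17 cone genes, 2 rose, 2 fell and 13 did not pass, with a median of -0.03.

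Among 28 outer segment, cilium and dystrophy genes, 1 rose and 3 fell. Impg2, a proteoglycan of the matrix around photoreceptors, stood at 341, 355 and 385 CPM in controls and 779.6, 769 and 739.8 CPM in JR5558 retinas. Every JR5558 library held roughly 2 times the control level (log2 fold change 1.08 ± 0.09, adjusted p = 2.08e-07). Rpgrip1, the scaffold of the connecting cilium, stood at 560.3, 426 and 462 CPM in controls and 250.05, 242 and 193 CPM in JR5558 retinas, with all JR5558 values well below all controls (log2 fold change -1.08 ± 0.14, adjusted p = 3.81e-05). The ciliary protein Lca5 fell (-0.44 ± 0.09, adjusted p = 0.00421), and the actin bundler Fscn2 fell (-0.34 ± 0.09, adjusted p = 0.031), the latter with a call that only the fit without JR5558 retina 3 kept (adjusted p up to 0.166 in the other 5).

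Inner retinal neurons showed few changes. Of 19 bipolar cell genes, Grm6, the glutamate receptor of ON bipolar cells, fell (-0.36 ± 0.08, adjusted p = 0.0155) and 18 did not pass. Its call ended without control retina 1 or 2 or JR5558 retina 2 or 3 (adjusted p up to 0.112). Of 10 horizontal cell genes, Tpm3, a tropomyosin found in many cells, fell (-0.38 ± 0.07, adjusted p = 0.00314). By edgeR 0 of 19 amacrine cell genes passed (3 at an unadjusted p under 0.05, 0 by DESeq2), and 0 of 18 ganglion cell genes (2 unadjusted, 1 by DESeq2), with medians of 0.02 and -0.01. Summed levels of the ganglion cell genes were 1327 to 1391 CPM in controls and 1330 to 1337 CPM in JR5558.

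**Figure D3:**
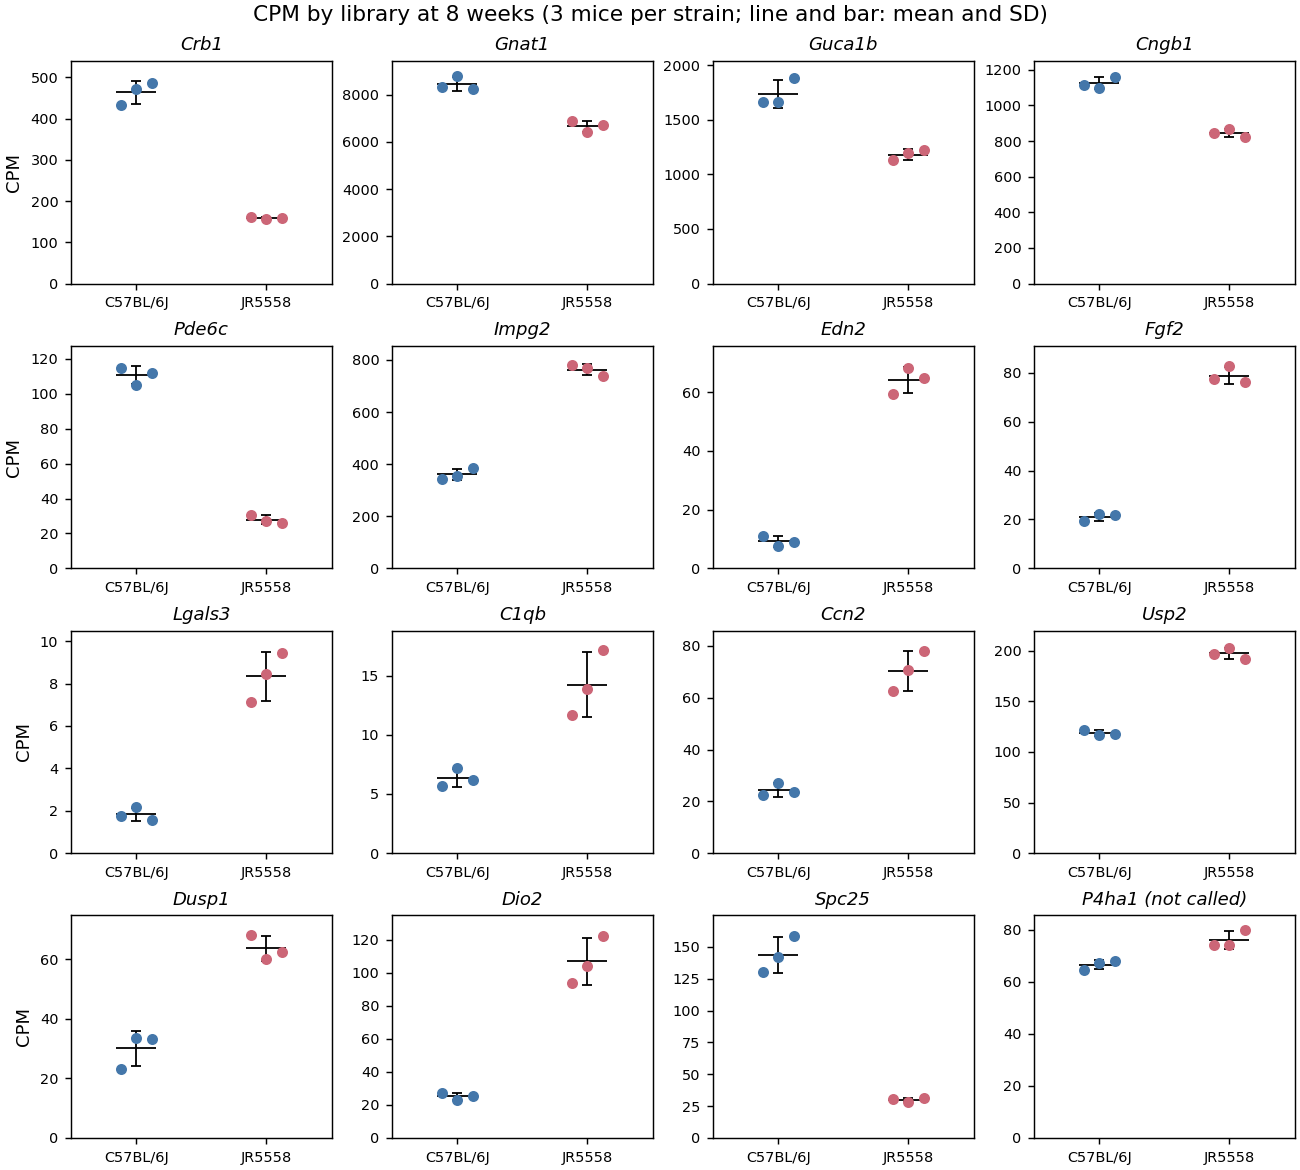
CPM of 16 genes (y axes, each from 0) in the 3 C57BL/6J (blue) and 3 JR5558 (red) retinas of 8 weeks; points are libraries, and the line and bar give the mean and SD. The strains do not overlap in any of the 16 panels, P4ha1 included, which did not pass the test (adjusted p = 0.261).

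Reactive glial genes were higher in JR5558. Of 28 tested, 14 rose, 0 fell and 14 did not pass, with a median of 0.59. Over the 6 fits without 1 library the count was 10 to 12, and with the pigment epithelium covariate it was 1. Edn2, the endothelin that stressed photoreceptors release to signal to Müller glia, stood at 11.0, 7.47 and 8.98 CPM in controls and 59.5, 68.1 and 64.7 CPM in JR5558 retinas. All JR5558 values were several times those of the controls (log2 fold change 2.80 ± 0.29, adjusted p = 3.34e-06). Both Edn2 and Fgf2 also stand in the angiogenesis list. Fgf2, a growth factor that protects photoreceptors, stood at 19.3, 22.2 and 21.9 CPM in controls and 77.6, 82.7 and 76.2 CPM in JR5558 retinas, also apart (log2 fold change 1.90 ± 0.21, adjusted p = 6.11e-06). The transcription factor Cebpd stood at 9.24, 10.7 and 12.4 CPM in controls and 35.5, 45.3 and 42.7 CPM in JR5558 retinas and rose (log2 fold change 1.94 ± 0.28, adjusted p = 0.000139). Complement component C4b rose (1.49 ± 0.22, adjusted p = 0.000169), with the limit that its close copy C4a can take part of its reads.

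Further down the same list, and named after their values were seen, were the metalloreductase Steap4 (1.95 ± 0.38, adjusted p = 0.00344), the NF-kappaB cofactor Bcl3 (2.18 ± 0.46, adjusted p = 0.00664; adjusted p = 0.0546 without control retina 1), the acute-phase inhibitor Serpina3n (1.28 ± 0.24, adjusted p = 0.00281) and the calcium-binding S100a6 (1.23 ± 0.22, adjusted p = 0.0018). The metallothionein Mt1 rose (0.78 ± 0.15, adjusted p = 0.00327). Gfap, the filament protein that reactive Müller glia and astrocytes make, stood at 35.4, 29.4 and 29.8 CPM in controls and 43.0, 43.8 and 52.4 CPM in JR5558 retinas. It was higher in each JR5558 retina (log2 fold change 0.56 ± 0.15, adjusted p = 0.0403), and its call ended without any 1 of the 6 libraries (adjusted p up to 0.216). The signal transducer Stat3 rose (0.50 ± 0.09, adjusted p = 0.00284) as did Osmr, the oncostatin M receptor upstream of it (0.74 ± 0.20, adjusted p = 0.0398), the latter with a call that also ended without any 1 library (up to 0.172) and with the replicate block (adjusted p = 0.0586). Of 21 JAK-STAT genes, 3 rose, Jak3, Stat3 and Osmr, and 18 did not pass.

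Müller glia also changed in genes of their resting state. Spc25, a kinetochore protein that serves as a Müller glia marker in the mouse retina, stood at 131, 142 and 158 CPM in controls and 30.5, 28.4 and 31.5 CPM in JR5558 retinas. No JR5558 value came near the controls (log2 fold change -2.25 ± 0.11, adjusted p = 3.12e-11). Crym, which binds thyroid hormone, stood at 57.5, 72.5 and 70.6 CPM in controls and 116, 118 and 134 CPM in JR5558 retinas and rose (log2 fold change 0.87 ± 0.11, adjusted p = 2.51e-05). Rlbp1, the retinaldehyde carrier of Müller glia and pigment epithelium, stood at 515, 532 and 524 CPM in controls and 771, 777 and 848 CPM in JR5558 retinas and rose (log2 fold change 0.61 ± 0.08, adjusted p = 2.86e-05). Sox2 (0.49 ± 0.10, adjusted p = 0.00532), the filament gene Vim (0.39 ± 0.09, adjusted p = 0.0102) and Cdh2 completed the 5 genes that rose among 20 resting Müller glia genes, and Spc25 was the 1 that fell. Without 1 library 3 or 4 rose (3 without retina 3 of either strain), by DESeq2 8, and in the 6 libraries of 8 weeks alone 11. With the pigment epithelium covariate 0 rose, and Spc25 was the 1 that fell. In that fit 6 of the 20 had an unadjusted p under 0.05, against 8.15% of all tested genes. The Vim call ended without retina 3 of either strain (adjusted p up to 0.057). Of 10 astrocyte genes, Gfap and Aldh1l1, a folate enzyme, rose (0.59 ± 0.11, adjusted p = 0.00241 for Aldh1l1).

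Microglial genes were higher at low levels. Of 18 homeostatic microglia genes, 17 had a positive log2 fold change, 6 rose and 0 fell, with a median of 0.76 and a summed level of 81.3 to 85.7 CPM in controls and 119.9 to 144.6 CPM in JR5558. The count was 4 to 6 without 1 library (4 without control retina 2 or JR5558 retina 2 or 3) and 0 with the pigment epithelium covariate (3 at an unadjusted p under 0.05, against 8.15% of all tested genes). By DESeq2, and in the 6 libraries of 8 weeks alone, 10 rose. C1qb, a chain of the first complement component, stood at 5.70, 7.19 and 6.20 CPM in controls and 11.7, 13.9 and 17.2 CPM in JR5558 retinas. The strains did not overlap (log2 fold change 1.16 ± 0.21, adjusted p = 0.00137). Csf1r, the receptor on which microglia depend, stood at 11.6, 12.7 and 9.84 CPM in controls and 16.6, 19.96 and 17.9 CPM in JR5558 retinas and rose (log2 fold change 0.67 ± 0.13, adjusted p = 0.00289). The adaptor Tyrobp (1.62 ± 0.32, adjusted p = 0.00382) and C1qc (1.11 ± 0.22, adjusted p = 0.00383) rose as well. The resting-state markers P2ry12 (0.68 ± 0.30, adjusted p = 0.243) and Tmem119 (0.74 ± 0.31, adjusted p = 0.206) did not pass.

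The list for activated microglia and macrophages had 8 higher and 2 lower genes of 24, with a median of 0.31. Without 1 library 3 to 5 rose (3 without JR5558 retina 3), and with the pigment epithelium covariate 0 passed by edgeR (7 at an unadjusted p under 0.05, against 8.15% of all tested genes). Lgals3, galectin-3 of phagocytes, stood at 1.77, 2.16 and 1.55 CPM in controls and 7.14, 8.47 and 9.44 CPM in JR5558 retinas. Each JR5558 retina lay several times above the controls (log2 fold change 2.19 ± 0.23, adjusted p = 4.84e-06). The cathepsin Ctss (0.86 ± 0.18, adjusted p = 0.00535), the ferritin light chain Ftl1 (0.35 ± 0.07, adjusted p = 0.00447) and lysozyme Lyz2 (1.20 ± 0.27, adjusted p = 0.0119) rose. The Lyz2 call ended without retina 3 of either strain (adjusted p up to 0.077). Osteopontin Spp1 (-0.52 ± 0.13, adjusted p = 0.0252) and lipoprotein lipase Lpl (-0.49 ± 0.13, adjusted p = 0.031) were the 2 members that fell. Leaving out any 1 library ended the Spp1 call (up to 0.15), and leaving out control retina 2 or 3 or JR5558 retina 1 or 2 that of Lpl (up to 0.217).

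Other immune genes passed in small numbers. Of 19 complement genes 5 rose, 3 of them C1q chains that the homeostatic microglia list also holds, and 1 fell, the latter Cd59a, which blocks the membrane attack complex. It stood at 52.1, 59.7 and 63.6 CPM in controls and 20.5, 20.1 and 23.5 CPM in JR5558 retinas. No JR5558 value came near a control (log2 fold change -1.45 ± 0.16, adjusted p = 9.03e-06). Of 16 MHC class I and peptide loading genes 2 rose, H2-D1 (0.96 ± 0.14, adjusted p = 0.000246) and H2-K1 (0.67 ± 0.16, adjusted p = 0.02), close copies whose reads can be split and which can differ in sequence between mouse strains. The H2-K1 call ended without retina 2 or 3 from either strain (adjusted p up to 0.118). By edgeR and by DESeq2, 0 of 7 MHC class II genes, 0 of 29 interferon-stimulated genes and 0 of 10 cytokines and chemokines passed. At an unadjusted p under 0.05, which 17.4% of all tested genes had, the counts were 1, 5 and 0. The medians were 0.48, 0.17 and 0.09.

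The genes of the series title did not pass at 8 weeks. Collagen prolyl 4-hydroxylase puts hydroxyl groups on proline in procollagen, which the collagen helix needs, and its subunits are P4ha1, P4ha2 or P4ha3 with P4hb. P4ha1 stood at 64.7, 67.1 and 68.1 CPM in controls and 74.0, 74.2 and 79.9 CPM in JR5558 retinas. JR5558 lay slightly above the controls without overlap, and the difference missed the threshold (log2 fold change 0.19 ± 0.09, adjusted p = 0.261). At 4 weeks, where sex differs with strain, P4ha1 was lower in JR5558 (-0.39 ± 0.09, adjusted p = 0.00929). The difference between ages did not pass (0.58 ± 0.12, adjusted p = 0.118). P4ha2 stood at 18.02, 15.7 and 18.6 CPM in controls and 17.1, 15.9 and 14.96 CPM in JR5558 retinas, with overlap (log2 fold change -0.12 ± 0.14, adjusted p = 0.715). For P4hb the log2 fold change was -0.03 ± 0.08, adjusted p = 0.874, and for P4ha3, read at under 1 CPM, -1.29 ± 0.66, adjusted p = 0.325.

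Proline enzymes gave small values as well. Pycr1, the last step of proline synthesis, differed by -0.44 ± 0.31, adjusted p = 0.519, and Aldh18a1, the first step from glutamate, by -0.15 ± 0.09, adjusted p = 0.452. Prodh, the first step of proline breakdown, differed by 0.12 ± 0.12, adjusted p = 0.676, Aldh4a1, the next one, by -0.18 ± 0.14, adjusted p = 0.566, and Oat, which links ornithine to proline, by 0.17 ± 0.08, adjusted p = 0.302. Of 22 genes of proline synthesis, breakdown and transport 1 rose, the brain proline transporter Slc6a7, at 8.31, 10.4 and 9.14 CPM in controls and 13.7, 14.5 and 12.8 CPM in JR5558 retinas (log2 fold change 0.56 ± 0.15, adjusted p = 0.0288). Its call ended without 5 of the 6 libraries in turn, all but control retina 2 (adjusted p up to 0.146).

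Of 33 collagen chains 0 passed by edgeR or DESeq2 (5 at an unadjusted p under 0.05), with a median of 0.04, 17 positive and 16 negative. With no filter on low counts 3 collagens rose, in the 6 libraries of 8 weeks alone 2, and with the replicate block 1. Col8a1, a chain of basement membranes named here after its values were seen, came nearest, at 12.1, 12.0 and 10.4 CPM in controls and 22.8, 18.2 and 24.02 CPM in JR5558 retinas (log2 fold change 0.91 ± 0.27, adjusted p = 0.0588). Among 30 genes of collagen hydroxylation, processing and crosslinking, Pcolce, which speeds up removal of the procollagen C-propeptide, stood at 12.6, 15.4 and 12.0 CPM in controls and 39.4, 39.2 and 39.1 CPM in JR5558 retinas. It rose (log2 fold change 1.56 ± 0.20, adjusted p = 5.67e-05), with JR5558 values nearly equal to each other and far above the controls. The procollagen protease Adamts3 fell (-0.47 ± 0.13, adjusted p = 0.0365), a call that ended without any 1 library (adjusted p up to 0.224), and 28 did not pass.

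Matrix and vessel lists held a few called members each, where 5.18% of all tested genes were called. Ccn2, connective tissue growth factor, stood at 22.3, 27.3 and 23.5 CPM in controls and 62.7, 70.6 and 78.2 CPM in JR5558 retinas. JR5558 values were all more than 2 times the controls (log2 fold change 1.53 ± 0.17, adjusted p = 7.49e-06). Thrombospondin-1 Thbs1, a matrix protein that restrains vessel growth, stood at 7.33, 7.74 and 5.67 CPM in controls and 19.9, 21.0 and 23.4 CPM in JR5558 retinas and rose (log2 fold change 1.63 ± 0.25, adjusted p = 0.00029). With the pigment epithelium covariate Thbs1 was at 0.46 ± 0.32, adjusted p = 0.771. The protease Adamts1 rose (0.55 ± 0.11, adjusted p = 0.00543). Of 41 matrix glycoprotein and remodelling genes 3 rose, 1 fell and 37 did not pass, and the 27 genes for TGF-beta and mesenchymal transition held 2 that rose, Vim and Cdh2, and 25 that did not pass. By DESeq2 8 matrix genes passed.

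Angiogenesis ligands and receptors rose in 5 of 29 cases and fell in 0, a count that each fit without 1 library also gave. Besides Edn2, Fgf2 and Adamts1 these were Kdr, the main VEGF receptor, at 181, 177 and 178 CPM in controls and 260.1, 265 and 265 CPM in JR5558 retinas (log2 fold change 0.56 ± 0.07, adjusted p = 4.17e-05), and Fgf1, at 64.9, 63.8 and 62.5 CPM in controls and 91.3, 101 and 99.6 CPM in JR5558 retinas (log2 fold change 0.61 ± 0.08, adjusted p = 4.86e-05). In both genes the strains lay well apart with narrow spread. With the pigment epithelium covariate 1 of the 29 rose, Edn2, and the calls of Fgf2, Adamts1, Kdr and Fgf1 ended. Vegfa, the ligand, stood at 183, 157 and 153 CPM in controls and 184, 170.0 and 175 CPM in JR5558 retinas, with overlap, and did not pass (log2 fold change 0.10 ± 0.10, adjusted p = 0.657). Kdr is also read in neurons and Müller glia of the retina. Of 20 endothelial genes 15 had a negative log2 fold change, 1 rose and 1 fell, with a median of -0.15. The tight junction protein Cldn5 fell (-0.65 ± 0.14, adjusted p = 0.00918) and Plvap, a protein of leaky vessels, rose (0.62 ± 0.15, adjusted p = 0.0157). The Cldn5 call ended without control retina 2 or JR5558 retina 1 or 3 (adjusted p up to 0.0719) and the Plvap call without retina 2 or 3 of either strain (up to 0.0873). Of 13 pericyte and smooth muscle genes 0 passed by edgeR (1 at an unadjusted p under 0.05) and 1 by DESeq2.

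Immediate early genes, which cells switch on within minutes of a stimulus, were higher at 8 weeks. Of 17 tested, 14 had a positive log2 fold change, 5 rose and 0 fell, with a median of 0.45 at 8 weeks and -0.09 at 4 weeks. The difference between ages passed in 0 of the 17 by edgeR (6 at an unadjusted p under 0.05, against 7.19% of all tested genes) and in 1 by DESeq2. With the pigment epithelium covariate 0 of the 17 passed at 8 weeks (5 unadjusted, against 8.15%), and without 1 library 3 or 4 did (3 in all but the fit without JR5558 retina 2). With no filter 9 rose, and in the 6 libraries of 8 weeks alone 8. Their summed level was 362 to 500 CPM in controls and 558 to 609 CPM in JR5558. Egr3 stood at 1.07, 1.22 and 1.18 CPM in controls and 3.50, 3.50 and 3.19 CPM in JR5558 retinas and rose (log2 fold change 1.55 ± 0.32, adjusted p = 0.0051). The phosphatase Dusp1 stood at 23.3, 33.7 and 33.4 CPM in controls and 68.3, 60.2 and 62.5 CPM in JR5558 retinas. All JR5558 retinas lay above all controls, of which replicate 1 was the lowest (log2 fold change 1.08 ± 0.24, adjusted p = 0.00866). Junb, at 22.04, 29.0 and 29.5 CPM in controls and 55.0, 50.5 and 51.2 CPM in JR5558 retinas, showed the same order (log2 fold change 0.96 ± 0.21, adjusted p = 0.00903). Both calls ended without control retina 1 (adjusted p = 0.0715 for each). Fosl2 rose (0.87 ± 0.21, adjusted p = 0.0212), with a call that ended without control retina 2 or 3 or JR5558 retina 1 or 3 (up to 0.113), and so did Nr4a3 (1.72 ± 0.46, adjusted p = 0.0351), whose call held only without control retina 1 (adjusted p up to 0.155 in the other 5 fits).

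Clock genes moved in part. Usp2, a deubiquitinase that follows the clock, stood at 122, 117 and 118 CPM in controls and 197, 203 and 192 CPM in JR5558 retinas. Its JR5558 values were all well above the controls (log2 fold change 0.73 ± 0.09, adjusted p = 3.69e-05). Ciart, a repressor of the clock, stood at 14.8, 12.8 and 14.3 CPM in controls and 26.2, 21.2 and 21.6 CPM in JR5558 retinas and rose (log2 fold change 0.72 ± 0.12, adjusted p = 0.000827). Per1, which answers to light and glucocorticoids as well as to the clock, stood at 85.6, 85.2 and 81.8 CPM in controls and 128, 126 and 115 CPM in JR5558 retinas and rose (log2 fold change 0.55 ± 0.12, adjusted p = 0.00728). The nuclear receptor Rorb fell (-0.32 ± 0.09, adjusted p = 0.0343), a call that only the fit without control retina 1 kept (adjusted p up to 0.188 in the other 5). Of 20 clock genes 3 rose, 1 fell and 16 did not pass, among them the core genes Arntl (-0.20 ± 0.08), Clock (-0.07 ± 0.09), Per2 (0.01 ± 0.13) and Nr1d1 (0.19 ± 0.08). The hour of dissection is not given in the sources used here.

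Sites in 4 promoters of these responsive genes are shown because the genes rose together. The cAMP response element, TGACGTCA, is bound by CREB, and the E-box CACGTG by the CLOCK complex. Windows of 250 bases before the start, from RefSeq on GRCm38.p6, are given for Dusp1 (chr17:26508473-26508722, minus strand) and the deiodinase Dio2 (chr12:90739039-90739288, minus strand) with the first motif in capitals, and for Ciart (chr3:95882229-95882478, minus strand) and Per1 (chr11:69098699-69098948, plus strand) with the second.
Dusp1: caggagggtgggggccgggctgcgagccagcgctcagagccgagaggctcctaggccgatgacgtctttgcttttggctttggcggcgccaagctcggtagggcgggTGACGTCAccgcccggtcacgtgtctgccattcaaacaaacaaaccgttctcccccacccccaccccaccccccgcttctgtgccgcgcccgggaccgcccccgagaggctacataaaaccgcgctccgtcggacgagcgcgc
Dio2: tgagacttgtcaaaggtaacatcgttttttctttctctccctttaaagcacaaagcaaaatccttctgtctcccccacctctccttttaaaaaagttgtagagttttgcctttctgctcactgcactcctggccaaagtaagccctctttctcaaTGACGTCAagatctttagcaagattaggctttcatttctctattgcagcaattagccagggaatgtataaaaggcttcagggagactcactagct
Ciart: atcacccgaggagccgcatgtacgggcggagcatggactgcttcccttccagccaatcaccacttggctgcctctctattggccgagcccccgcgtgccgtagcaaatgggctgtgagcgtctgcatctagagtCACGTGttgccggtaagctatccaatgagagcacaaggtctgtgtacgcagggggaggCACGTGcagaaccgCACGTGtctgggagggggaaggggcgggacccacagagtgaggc
Per1: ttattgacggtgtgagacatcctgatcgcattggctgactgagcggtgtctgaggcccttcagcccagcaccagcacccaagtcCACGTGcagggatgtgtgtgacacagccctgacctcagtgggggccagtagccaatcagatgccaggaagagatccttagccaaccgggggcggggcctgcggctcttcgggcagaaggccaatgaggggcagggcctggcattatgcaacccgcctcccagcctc
The cAMP response element began 143 bases before the start in Dusp1 and 95 before it in Dio2. E-boxes began 116, 58 and 44 bases before the start in Ciart and 166 before it in Per1. Both motifs read the same on both strands. TGACGTCA was in 1.55% of the 32851 windows and in 2 of the 13 tested immediate early genes with a window, of which Dusp1 was called. Fosl2, Junb and Nr4a3, called as well, held no match. Dio2 stands in neither the immediate early nor the clock list. The Dusp1 window also holds a CACGTG, left in small letters. CACGTG was in 6.02% of all windows and in 5 of 18 tested clock genes with a window (27.8%), of which Ciart and Per1 were called. The called clock genes Usp2 and Rorb held none.

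Metabolic genes included a pair of enolases. Eno1, the glycolytic enolase, stood at 2716, 2730.2 and 2705 CPM in controls and 1726, 1729.8 and 1733 CPM in JR5558 retinas and fell (log2 fold change -0.65 ± 0.06, adjusted p = 4.53e-07). Its near-identical copy Eno1b stood at 56.7, 51.2 and 51.0 CPM in controls and 638, 680.0 and 668 CPM in JR5558 retinas and rose (log2 fold change 3.64 ± 0.11, adjusted p = 6.65e-14). Summed, the 2 copies reached 2770 ± 12.9 CPM (SD, n = 3) in C57BL/6J and 2392 ± 24.3 CPM in JR5558, a log2 ratio of -0.21. The single values are uncertain in how reads were split, and the sum can lack reads that match both copies equally. Of the other glycolysis genes, Pgam1 (0.30 ± 0.08, adjusted p = 0.0234) and Ldhb (0.29 ± 0.08, adjusted p = 0.0273) rose, both with calls that ended without retina 3 of either strain, control retina 1 or 2 or JR5558 retina 2 (adjusted p up to 0.135 and 0.193).

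Of 26 cholesterol and fatty acid genes 0 rose and 5 fell, with a median of -0.07. Besides Ppara and Lpl these were the sterol regulator Srebf1 (-0.34 ± 0.07, adjusted p = 0.00465), the fatty acid transporter Cd36 (-1.14 ± 0.30, adjusted p = 0.0326) and Cpt1a, which admits fatty acids to mitochondria (-0.28 ± 0.08, adjusted p = 0.0401). The calls of Cd36 and Cpt1a ended without any 1 library (adjusted p up to 0.156 and 0.208), and the list held 2 or 3 lower genes in those fits (2 without control retina 2 or 3 or JR5558 retina 1 or 2). In the integrated stress response list, 18 of 22 genes had a negative log2 fold change and 2 fell (8 in the 6 libraries of 8 weeks alone), the glutathione-degrading Chac1 at 6.58, 5.70 and 7.32 CPM in controls and 2.53, 2.79 and 2.34 CPM in JR5558 retinas (log2 fold change -1.35 ± 0.27, adjusted p = 0.00383) and asparagine synthetase Asns (-0.54 ± 0.13, adjusted p = 0.0163). The Asns call ended without 5 of the 6 libraries in turn, all but control retina 1 (up to 0.0853). Of 20 cell death and inflammasome genes 1 was called, the survival gene Bcl2, which fell (-0.60 ± 0.13, adjusted p = 0.00763). Its call ended without control retina 3 or JR5558 retina 2 (adjusted p up to 0.0714). Of 23 oxidative stress and antioxidant genes 1 was called, the peroxidase Prdx6, which rose (0.32 ± 0.07, adjusted p = 0.0125). Its call ended without retina 1 of either strain or JR5558 retina 3 (up to 0.09). Both counts were near the 5.18% called among all tested genes. The muscle gene Neb, a check for carried-over tissue, fell (-1.72 ± 0.45, adjusted p = 0.0307; ended without control retina 1 or 3 or JR5558 retina 2 or 3, up to 0.171).

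The strain difference itself differed between 8 and 4 weeks for 17 genes (0.0927% of those tested, edgeR's quasi-likelihood test of the interaction). The signed value (JR5558 minus C57BL/6J) was higher at 8 weeks for 10 and lower for 7, whatever its size. In this comparison sex moves with strain and age: the 4-week JR5558 retinas held 0 to 5 counts of Xist and 1323 to 1846 of Ddx3y, while the other 9 held 7772 to 22988 and 0. Age and sex effects on these genes cannot be told apart, and 5 of the 17 lie on the X chromosome. Without 1 of the 8-week libraries 6 to 11 genes passed (6 without control retina 2).

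Dio2, the deiodinase that makes active thyroid hormone, stood at 27.2, 23.2 and 25.2 CPM in controls and 94.0, 104 and 122 CPM in JR5558 retinas at 8 weeks. At 4 weeks it stood at 27.5, 36.6 and 44.3 CPM in controls and 37.5, 30.5 and 62.2 CPM in JR5558 retinas. The strains were far apart at 8 weeks (log2 fold change 2.08 ± 0.20, adjusted p = 1.46e-06) and overlapped at 4 weeks (0.26 ± 0.20), and the difference of the differences was 1.82 ± 0.28, adjusted p = 0.0105. That call ended without control retina 2 (adjusted p = 0.0585). Usp2 had a strain difference of -0.16 ± 0.09 at 4 weeks, and the interaction was 0.89 ± 0.13, adjusted p = 0.00799. Ip6k2, an inositol phosphate kinase, stood at 197, 219.6 and 221 CPM in controls and 410.4, 428 and 419 CPM in JR5558 retinas at 8 weeks. It rose at that age (log2 fold change 0.98 ± 0.14, adjusted p = 0.000181), against -0.39 ± 0.14 at 4 weeks, with an interaction of 1.37 ± 0.20, adjusted p = 0.00799.

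Etnppl, a lyase of phospholipid breakdown, stood at 13.03, 15.8 and 15.6 CPM in controls and 8.17, 6.64 and 6.97 CPM in JR5558 retinas at 4 weeks and at 12.98, 19.4 and 16.9 CPM in controls and 25.3, 21.0 and 19.9 CPM in JR5558 retinas at 8 weeks. JR5558 lay below all controls at 4 weeks and above them at 8 weeks, where the difference did not pass (log2 fold change 0.43 ± 0.15, adjusted p = 0.123). The interaction was 1.45 ± 0.22, adjusted p = 0.00886. The mitochondrial leucine tRNA mt-Tl2, poorly captured in poly-A RNA, had an interaction of 1.93 ± 0.36, adjusted p = 0.0465. The bipolar cell transcription factor Vsx1 went the other way, with an interaction of -0.71 ± 0.13, adjusted p = 0.0435.

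The glutamine transporter Slc38a3 stood at 779.5, 729 and 715 CPM in controls and 595, 556 and 549 CPM in JR5558 retinas at 8 weeks and fell (log2 fold change -0.39 ± 0.07, adjusted p = 0.00153), against 0.22 ± 0.07 at 4 weeks (interaction -0.61 ± 0.10, adjusted p = 0.0106). Arrdc3, an arrestin-like adaptor, fell at 8 weeks (-0.48 ± 0.09, adjusted p = 0.00301; interaction -0.70 ± 0.13, adjusted p = 0.0465), and the histone gene H3f3b had an interaction of -0.67 ± 0.11, adjusted p = 0.0105. Leaving out any 1 library of 8 weeks ended the interaction calls of Vsx1 and Arrdc3 (adjusted p up to 0.241 and 0.277). Leaving out 4 or 5 of them in turn ended those of H3f3b (up to 0.0781), Slc38a3 (up to 0.0654) and mt-Tl2 (up to 0.230). Those of Ip6k2, Usp2 and Etnppl passed in all 6 of these fits.

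**Figure D4:**
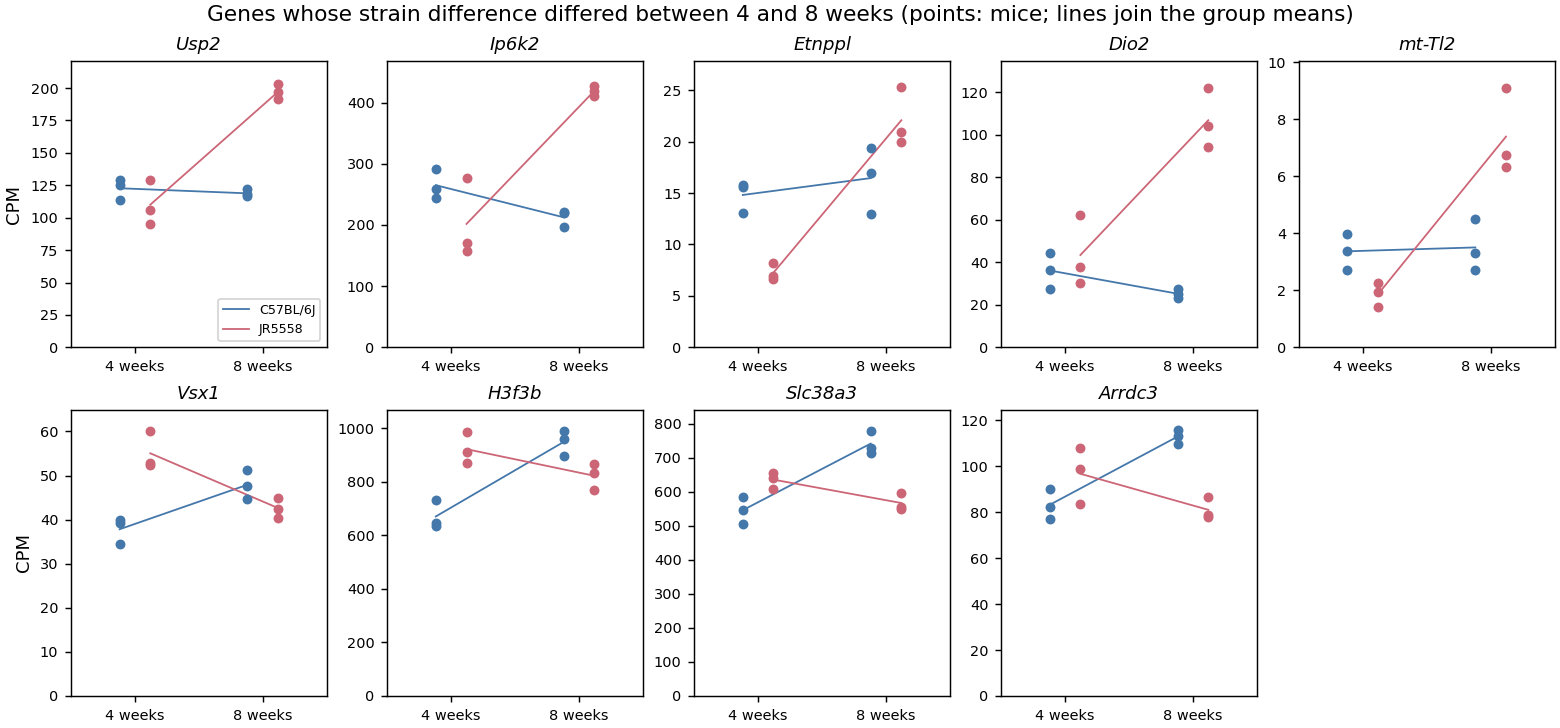
CPM (y axes, each from 0) of 9 named genes whose strain difference differed between 4 and 8 weeks, in C57BL/6J (blue) and JR5558 (red); points are mice, 3 per group, and lines join the group means. The JR5558 values of Usp2, Ip6k2, Dio2, Etnppl and mt-Tl2 lie above all controls at 8 weeks, and those of H3f3b, Slc38a3 and Arrdc3 below them.

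Called genes were spread unevenly over the chromosomes. Shares ran from 2.30% of tested genes on chromosome 1 to 10.6% on chromosome 18, with 9.04% on chromosome 8 (25 higher and 64 lower) and 8.34% on chromosome 17. By windows of 10 Mb with at least 20 tested genes, in the positions of the deposited table, the largest share was 26.2% (11 of 42) at 30 to 40 Mb of chromosome 8, followed by 24.6% (14 of 57) at 40 to 50 Mb of chromosome 14 and 22.3% (25 of 112) at 140 to 150 Mb of chromosome 4. The window of Jak3, 70 to 80 Mb of chromosome 8, held 26 called genes of 149 (17.4%). At 4 weeks those 4 windows held 16, 14, 23 and 25 called genes. These shares are given without a test.

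**Figure D5:**
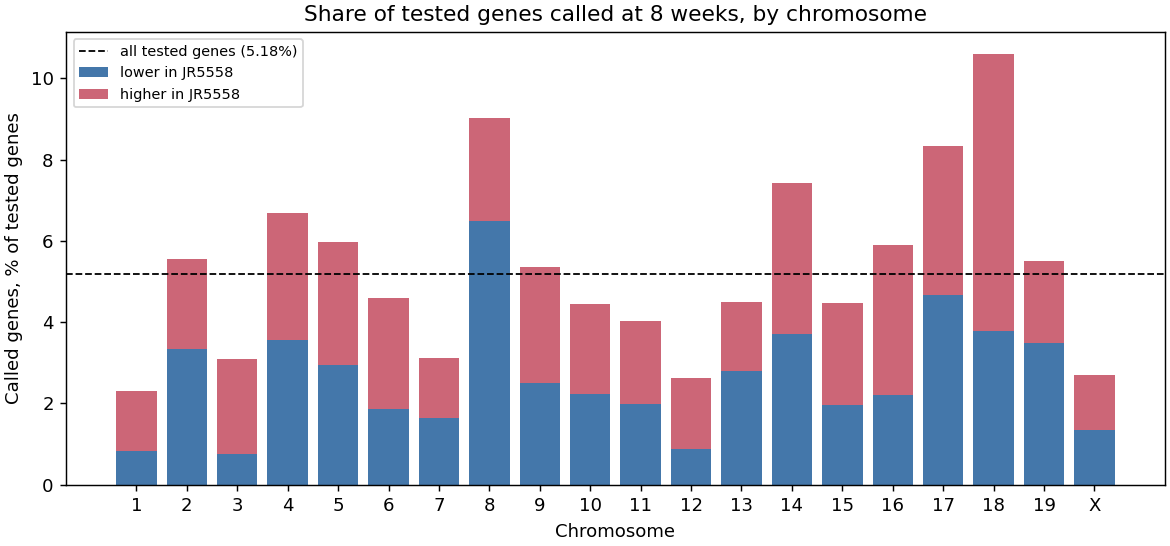
Bars give the share of tested genes called at 8 weeks on each chromosome (y axis, percent; x axis, chromosome), split into genes lower (blue) and higher (red) in JR5558; the dashed line is the share over all tested genes, 5.18%. Chromosomes 18, 8 and 17 stand highest, and the bar of chromosome 8 is mostly lower genes.

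Reads from a gene and from one on the opposite strand could not be told apart, because the labels leave open whether the libraries kept strand. Of the 116 named genes, 32 overlap a gene with counts on the other strand, and in 15 that gene had at least 10% of the named gene's mean count. Among them were Prodh with Dgcr6 (mean counts of 508 and 828), Junb with Prdx2, Dusp1 with Ergic1 and Csf1r with Hmgxb3. Plvap with Gtpbp3, Ciart with C920021L13Rik and Ube4bos1 with Ube4b were others. So were Rpgrip1 with Supt16, Opn1sw with Calu, Cebpd with Spidr and Srebf1 with Rai1. Fgf2 with Fgf2os, Tagap with E430024P14Rik and Ces1a with Gm45463 belonged to them too. The values of these genes are uncertain to that extent.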

How the data were processed

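Poly-A RNA of 12 whole retinas, each from a separate mouse, was sequenced as paired-end reads: 4 groups of 3 mice, C57BL/6J and JR5558 at 4 and 8 weeks. Per the submitters' processing notes, fastp, HISAT2 2.0.5, featureCounts 1.5.0-p3 and the mm10 genome were used. Per the file headers, the authors deposited raw counts for 56748 genes, of which 25020 had 0 counts in all libraries. The authors also deposited FPKM values, which were not used for any test. The deposited table also gives a log2 fold change and p-values of the authors' own 8-week comparison, whose test is not given in the sources used here. The annotation release and the strandedness of the libraries are not given in the sources used here either.

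The counts were fitted with edgeR 4.0.16 (R 4.3.3, limma 3.58.1). Genes were kept with filterByExpr at a minimum count of 10 and a minimum total of 15, which left 18334. Libraries were scaled by TMM, and all 12 entered a common quasi-likelihood fit with the 4 groups as terms, so that they share an estimate of the spread. Strain effects at 8 weeks, and their difference from those at 4 weeks, were tested with Benjamini-Hochberg adjustment over all 18334 genes at a threshold of 0.05. The p-values measure the spread between 3 mice a group. Totals of all libraries were 18029611 to 23739886 counts. CPM values are counts scaled to 1000000 per library after TMM, and log2 CPM values used a prior count of 2. Where a strain had 0 counts, the fold was set against a floor of 3 counts over its group, which covers counting error only. The covariate was the mean log2 CPM of 33 pigment epithelium markers. The procedure was tested on simulated data.

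Alternatives were DESeq2 1.42.0, RLE scaling, other filters, the 6 libraries of 8 weeks alone, a replicate block, the covariate and leaving out each library. Promoter windows are the 250 bases before each start in a RefSeq table on GRCm38.p6. Positions of genes are those of the deposited file, whose build is not settled, since they do not match GRCm38; they were not joined to the promoter windows by position.

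The gene lists and the genes to name were chosen with earlier results of these data known. Named by rule were Crb1, Jak3 and 9 genes of the title topic, the 10 largest changes in each direction among called genes with a mean of at least 1 CPM in the higher strain and no overlap (without pseudogenes and unnamed models), up to 4 called members per list in order of adjusted p, and up to 5 autosomal genes per direction of the difference between ages. All other genes with values were chosen after these were seen. Some genes that enter the counts are not reported here.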

Additional observations from a re-analysis of the deposited data

Results flagged for a closer look

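For 17 genes the strain difference at 8 weeks departed from that at 4 weeks (edgeR's quasi-likelihood test of the interaction, log2 scale, 8 weeks minus 4 weeks). The 4-week JR5558 retinas carried Y-linked RNA and 0 to 5 counts of Xist, and the other 9 retinas did not carry it, so sex, age and strain cannot be told apart here. On the X chromosome the values were 12.84 for Xist, 0.82 for Eif2s3x, 0.68 for Kdm5c, 0.91 for Kdm6a and 0.77 for 5530601H04Rik, genes of which the first 4 are known to be read from the inactive X. On the autosomes and the mitochondrial genome the signed difference was higher at 8 weeks for Dio2 (1.82), Etnppl (1.45), Ip6k2 (1.37), Usp2 (0.89) and mt-Tl2 (1.93). It was lower for A930033H14Rik (-0.91), Gm4792 (-0.83), Vsx1 (-0.71), Arrdc3 (-0.70), H3f3b (-0.67) and Slc38a3 (-0.61). A lower signed value is not always a smaller difference. That of Slc38a3 went from 0.22 at 4 weeks to -0.39 at 8 weeks, and that of Vsx1 from 0.54 to -0.17. Calls of Xist, Ip6k2, Usp2, Eif2s3x and Etnppl passed in each fit without 1 of the 8-week libraries, and those of Arrdc3, Kdm6a and Vsx1 in none of them.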

How the results depend on the processing

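RLE scaling, the 1 CPM filter, no filter and DESeq2 gave 940 to 1290 called genes in place of 949, within 1.5 times. In the 6 libraries of 8 weeks alone 2183 passed (1077 higher, 1106 lower), with the pigment epithelium covariate 154 (80 higher, 74 lower; 127 at 2-fold, main 344). Leaving out 1 library gave 538 to 649 calls, 276 to 337 higher and 262 to 321 lower, and 266 to 311 at 2-fold; these fits have fewer samples. Of the genes in the lists 106 passed, against 164 with no filter, 214 in the 6 libraries, 13 with the covariate and 65 to 81 without 1 library. The 17 differences between ages became 96 with no filter and 63 with DESeq2, both holding all 17, 13 with the covariate and 6 to 11 without 1 library. No named gene changed sign with a call. Of 103 called named genes, DESeq2, RLE scaling and the 6-library fit lost 0, no filter lost Mpdz (adjusted p = 0.134), the covariate lost 77, and each fit without 1 library lost 17 to 23, with 72 kept in all 6. The 6-library fit added calls, among them Etnppl and H3f3b.

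Same-numbered retinas of the strains did not deviate together (r = -0.003, -0.010 and 0.010), and the main fit treated the numbers as names of mice. Whether the numbers also stand for a batch or litter was not tested. With the replicate block 845 genes passed (417 higher, 428 lower; 324 at 2-fold), 106 list genes and 12 of the 17 differences between ages. It ended the calls of Fscn2 (adjusted p = 0.0515), Osmr (0.0586) and Mpdz (0.0692). Where tests changed, the cause was not tested. Genes under about 1 CPM rest on few counts, and differences there were not detectable at this depth unless large.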

Other observations

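A930033H14Rik was the 1 gene called at both ages in opposite directions. At 8 weeks it stood at 23.5, 24.8 and 24.5 CPM in C57BL/6J and 18.2, 15.7 and 20.2 CPM in JR5558, and at 4 weeks at 30.4, 25.2 and 26.7 CPM and 38.3, 41.0 and 35.6 CPM. The log2 fold change was -0.43 ± 0.11 at 8 weeks and 0.48 ± 0.11 at 4 weeks, where sex differed with strain. The difference between ages passed (edgeR's quasi-likelihood test of the interaction, adjusted p = 0.0185). That call ended without control retina 1, 2 or 3 or JR5558 retina 1 or 2 (adjusted p up to 0.126). It also ended with the replicate block (adjusted p = 0.057) and with the pigment epithelium covariate (adjusted p = 0.0632).

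Another pair of near-identical copies moved in opposite directions. Eif3j1, a subunit of an initiation factor, stood at 35.6 ± 2.74 CPM (SD, n = 3) in C57BL/6J and 17.1 ± 0.761 CPM in JR5558, while its copy Eif3j2 stood at 1.24 ± 0.826 CPM and 17.5 ± 2.03 CPM. Their sum, which can lack reads that match both copies equally, was 36.8 ± 3.56 CPM and 34.6 ± 2.14 CPM. Of a further pair, Amd1, which feeds polyamine synthesis, stood at 127.7, 149.8 and 148.6 CPM in C57BL/6J and 134.2, 121.8 and 132.2 CPM in JR5558, with overlap, and did not pass (edgeR adjusted p = 0.546). Its copy Amd2 stood at 2.83 ± 0.146 CPM and 16.1 ± 1.85 CPM (SD, n = 3).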
